A study of Mus musculus with 6 samples.

Results

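Collagens, laminins and integrins build the basement membrane and interstitial matrix of the fetal testis and attach cells to it. They were measured by oligonucleotide array in embryonic mouse testes at E13.5, shortly after the testis cords have formed. Members were chosen by gene symbol: the collagen alpha chains, the laminin alpha, beta and gamma chains, all genes named as integrins other than Itgam, and Nid1, Nid2, Fn1, Hspg2 and Agrn. They comprised 85 genes of 18194 gene symbols on the array and 175 of its 45101 probe sets, and each gene was represented by its probe set with the highest mean. Of the 85 genes, 42 were collagen chains, 10 laminin chains, 5 the other matrix proteins named, 24 integrin chains and 4 carry an integrin name without being integrin chains.

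Arrays of 3 control and 3 Dmrt1 null testes were deposited, 1 array per sample, and the labels call each sample a biological replicate. Dmrt1 encodes a transcription factor of Sertoli cells and germ cells, and the study asked how its loss changes fetal testis expression on a strain background where the mutants often form teratomas. All embryos were outcrossed to 129S6/SvEvTac. The controls are wild type by title but Dmrt1 heterozygous by description, genotype entry and design text. The nulls are Dmrt1 -/- in title, description and design text, but Dmrt(flox/flox) in the genotype entry, with no Cre driver named. The sources used here do not say whether a sample is 1 embryo or a pool, and p-values measure the spread between these samples.

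Fibrillar collagens such as collagens I and III form the cables of interstitial matrix. Basement membranes are sheets in which a collagen IV network and a laminin network are joined by nidogens and the heparan sulfate proteoglycans perlecan and agrin. In the fetal testis such a sheet surrounds each cord and is laid down by Sertoli cells together with peritubular cells. Integrins are receptors of 1 alpha and 1 beta chain that bind these proteins at the cell surface and link them to the actin cytoskeleton.

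The arrays differed in ways that touch these genes. Intensities, which are linear and normalised between arrays, are given throughout in the order of replicates 1, 2 and 3 of a group. Dmrt1 followed the labels, at 696, 1030 and 796 among the controls against 48.4, 26.9 and 23.8 among the nulls. Sertoli cell markers bore out the tissue, with 11 of 12 listed genes measured, all 11 past the filter, and a summed intensity of 19969 to 21422 in controls and 17419 to 19014 in nulls. That sum was lower in every null array, with Cst9, called lower, at a mean of 3147 in controls and 1063 in nulls, and Aard at 5773 and 4290. Of the 11 genes 7 had differences above 0, with a median of 0.06. The summed intensity of 12 endothelial markers ranged from 1676 to 4116 in controls and from 2558 to 4560 in nulls, and was lowest in control replicate 2 and null replicate 1. That of 4 measured fetal Leydig markers ranged from 4024 to 10320 in controls and from 3204 to 12950 in nulls. Control replicate 3 stood apart at 31 probe sets of 24 genes that were at least 2 on the log2 scale above every other array. They included Chgb, Dbh and Th, genes of chromaffin cells and sympathetic neurons, and Chgb was at 1270 there against 7.19 to 19.5 elsewhere. In bulk tissue, fewer cells of a type and less RNA per cell cannot be told apart.

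Loss of Dmrt1 left no collagen, laminin or integrin past the test. Of the 85 genes, 63 had a mean log2 intensity of at least 4 and were tested with limma among 22082 probe sets. At a Benjamini-Hochberg adjusted p under 0.05, 0 members were called in either direction, against 0.0505% of the 11874 genes tested, 0.0% higher and 0.0505% lower. Adjusted limma p of the members ranged from 0.773 to 0.985. At an unadjusted limma p under 0.05 there were 7 members, 5 lower and 2 higher in the null, or 11.1% against 6.44% of genes tested (3.44% higher and 3.01% lower). That count moved with single arrays, to 14 members when control replicate 1 was left out and 15 for null replicate 1, but to 3 for control replicate 3 and 4 for null replicate 3. The share of all genes in those fits is not given here, so whether these moves are particular to the members was not tested. Null and control arrays did not overlap at 8 members, 6 lower and 2 higher in the null, or 12.7%, against 13.1% of genes tested (7.8% higher and 5.32% lower), so this share lay near the background. The median difference of null minus control was -0.04 on the log2 scale over the members and 0.03 over all genes tested. Of the members 28 lay above 0 and 35 below, against 6685 above and 5189 below among the 11874 genes tested. Without control replicate 3 the members' median was 0.03.

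**Figure D1:**
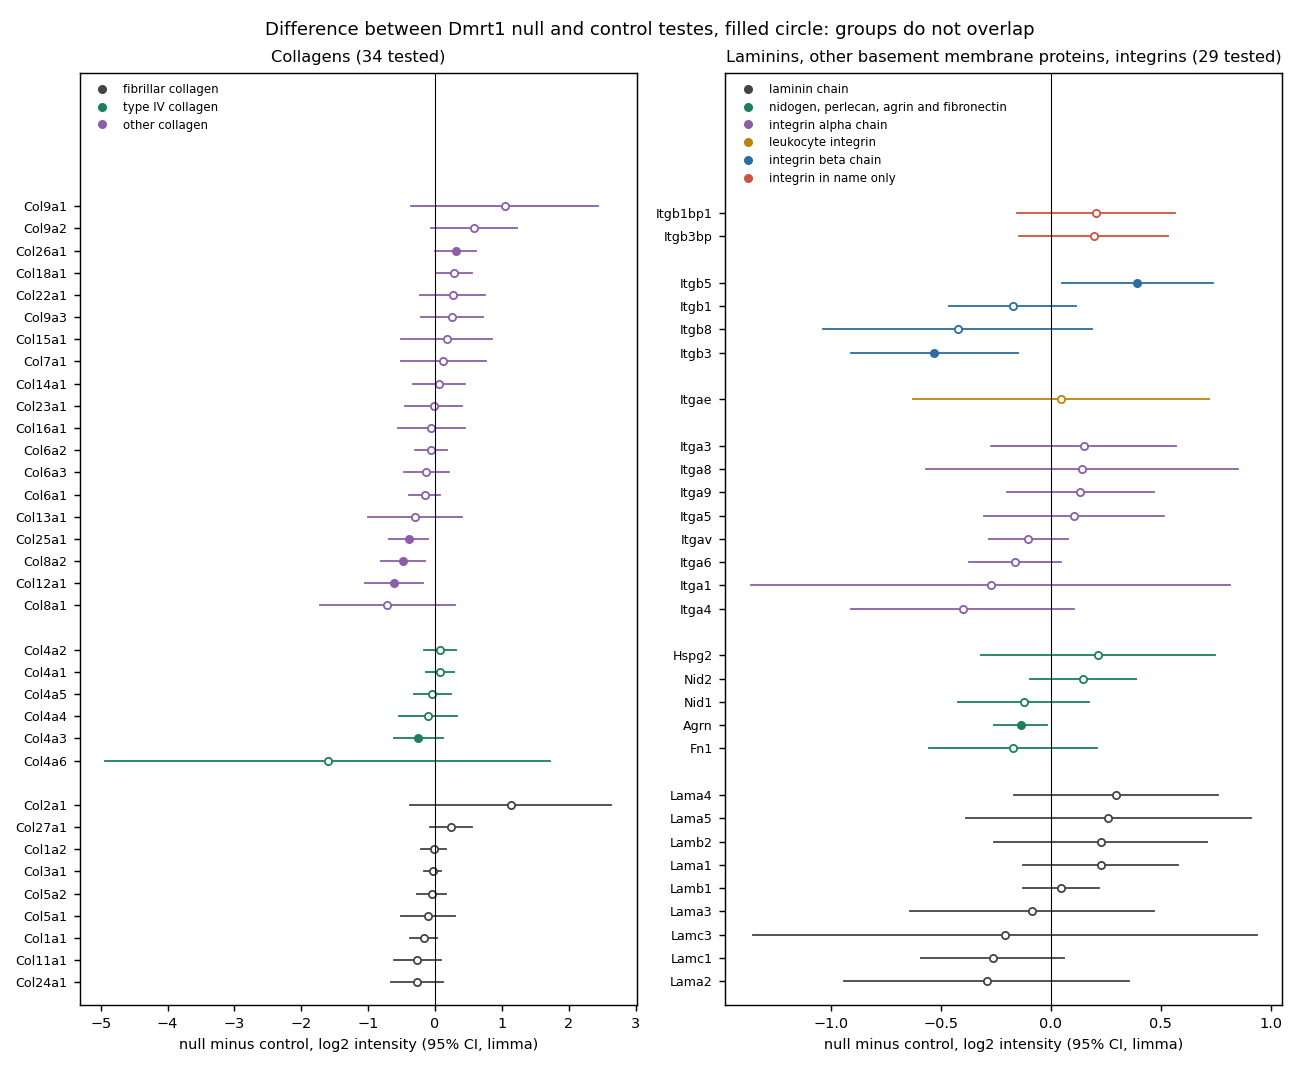
Each circle is the difference of null minus control in log2 intensity for 1 of the 63 tested members, with its 95% confidence interval from limma (n = 3 per group), by protein class; filled circles mark the 8 members whose groups do not overlap. Most collagens and all laminins have intervals that span 0, and Col4a6 has the widest, from -4.93 to 1.72.

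The pattern that stood out most was in 1 array. Col4a6 encodes a chain of the collagen IV network found in a subset of basement membranes. Its intensities were 422, 246 and 418 in the controls and 7.27, 375 and 562 in the nulls. Null replicate 1 was thus below the filter level, while the other 2 null arrays lay within or above the control range. A second Col4a6 probe set gave 100, 59.4 and 110 in the controls and 3.99, 96.5 and 145 in the nulls, with the same array low. Null replicate 1 lay 5.75 below the mean of the other 5 arrays at the first probe set and 4.62 below it at the second, on the log2 scale. Among all 45101 probe sets, 4 had an array at least 2 below every other array, a limit set after these values were seen. They were the 2 of Col4a6 and 2 of Cldn34c1, a claudin-like gene, and in each the low array was null replicate 1. Cldn34c1 gave 254, 140 and 133 in the controls and 3.69, 183 and 198 in the nulls at its brighter probe set. Both genes lie on the X chromosome.

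Col4a6 and Col4a5 are arranged head to head on the X chromosome, with 1274 bases between their annotated ends in RefSeq (GRCm38.p6). The gap is chrX:141474096-141475369. Its bases next to each gene are printed because Col4a6 had its drop in null replicate 1 and Col4a5 had none of like size there. Each runs 5′ to 3′ on its gene's strand and ends at the annotated gene boundary, and capitals mark the letters CCAAT or their complement ATTGG, searched on both strands. The Col4a6 stretch is chrX:141474096-141474326 on the minus strand, 231 bases, and the Col4a5 stretch is chrX:141475169-141475369 on the plus strand, 201 bases.
Col4a6: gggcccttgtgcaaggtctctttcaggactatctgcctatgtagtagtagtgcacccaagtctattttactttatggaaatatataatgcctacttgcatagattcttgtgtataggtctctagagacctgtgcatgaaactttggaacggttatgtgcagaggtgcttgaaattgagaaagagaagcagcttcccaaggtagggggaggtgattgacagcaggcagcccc
Col4a5: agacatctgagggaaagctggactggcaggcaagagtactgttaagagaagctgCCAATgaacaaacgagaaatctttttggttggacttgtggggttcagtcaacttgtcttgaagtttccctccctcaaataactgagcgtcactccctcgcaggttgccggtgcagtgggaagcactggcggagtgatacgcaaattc
The Col4a5 stretch holds CCAAT 1 time and the Col4a6 stretch 0 times, and 33.8% of all 32851 RefSeq promoter windows hold it in their 250 bases before the start.

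Neighbouring genes showed no drop of that size in null replicate 1. Col4a5, the partner chain of Col4a6, gave 2750, 2140 and 2310 in controls and 2130, 2200 and 2660 in nulls, a value in null replicate 1 that was 0.17 below the mean of the other 5 arrays. Its second probe set was 0.55 below that mean, and null replicate 1 was the lowest array at both. Atg4a, the next gene on the other side of Col4a6, was 0.37 above it. The genotype difference of Col4a6 therefore rests on 1 array. It was -1.61 with all arrays (standard error 1.44, limma adjusted p = 0.830) and 0.39 without null replicate 1.

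**Figure D2:**
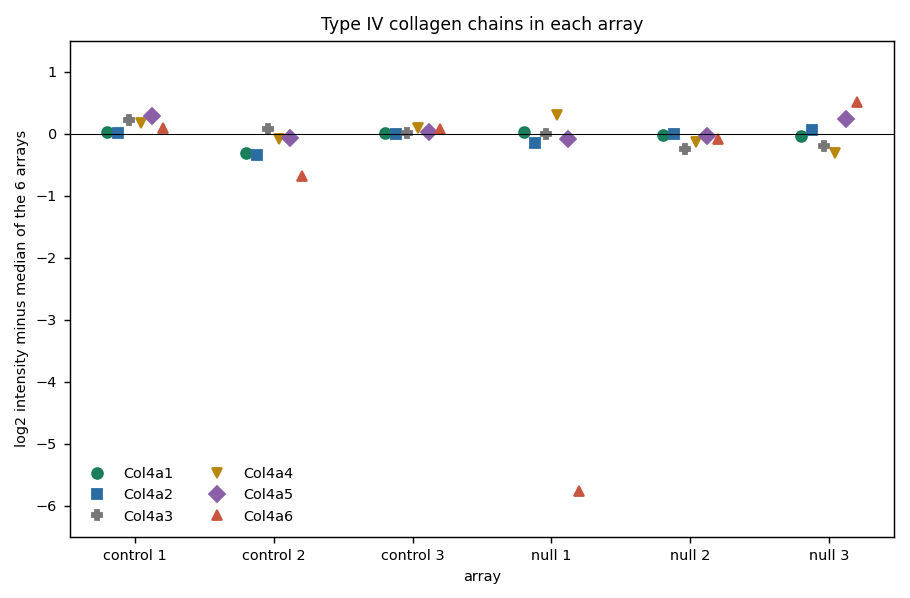
Log2 intensity of the 6 type IV collagen chains in each of the 6 arrays, as the distance from the median of the 6 arrays. Col4a6 in null replicate 1 lies more than 5 below the rest, while the other 5 chains stay within 1 of their medians.

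The other collagen IV chains varied far less than Col4a6. Col4a1 and Col4a2, whose products form the network of nearly all basement membranes, lie head to head on chromosome 8, with annotated ends that overlap by 85 bases. Col4a1 was at 4670, 3670 and 4630 in controls and 4640, 4510 and 4430 in nulls. Col4a2 was at 4610, 3610 and 4580 in controls and 4110, 4570 and 4750 in nulls. For both genes control replicate 2 was the lowest array and the other 5 were within a narrow band. Their differences were 0.07 (95% confidence interval -0.14 to 0.29) and 0.08 (-0.16 to 0.31), n = 3 per group, and -0.04 for each without control replicate 2. Col4a3, a chain of specialised basement membranes, was dim at 21.1, 19.2 and 18.2 in controls and 18.1, 15.3 and 15.8 in nulls. Its groups do not overlap, at 18.2 against 18.1 where they come closest, and its difference of -0.25 had a limma adjusted p of 0.781. Adding 16 to each intensity, which damps dim values, made it -0.13. Col4a4, the head-to-head neighbour of Col4a3, was at -0.11. Its second probe set gave 64.5, 61.4 and 63.2 in controls and 55.9, 48.6 and 18.3 in nulls. There the groups did not overlap, with a difference of -0.78 (limma adjusted p = 0.773), and null replicate 3 was far below the rest.

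Laminins, the other basement membrane network, showed no called change. Laminin trimers combine 1 alpha, 1 beta and 1 gamma chain. Of 10 chains 9 were tested, 5 with differences above 0 and 4 below, and none had groups that did not overlap. Lama1, the alpha chain of early embryonic basement membranes, gave 323, 293 and 322 in controls and 297, 411 and 399 in nulls, with null replicate 1 inside the control range. Lamb1, a beta chain shared by many trimers, gave 4190, 3970 and 4270 in controls and 4640, 3850 and 4380 in nulls, with overlapping groups. Lamc1, the gamma chain of most laminins, gave 703, 531 and 613 in controls and 541, 542 and 449 in nulls. Its difference of -0.27 (95% confidence interval -0.59 to 0.06, n = 3 per group) is set against 0.07 at its second probe set. Lama4, a chain prominent in vessel walls, gave 992, 632 and 1080 in controls and 982, 1040 and 1230 in nulls. Its lowest array, control replicate 2, was also the lowest for endothelial markers, and their part in its difference of 0.30 was not tested. Lama5 and Lamb2 were at 0.26 and 0.23, Lama2, the muscle-type alpha chain, at -0.29, Lama3 at -0.08 and Lamc3 at -0.21. Single arrays carried much of these differences, which were 0.05 for Lama5 and 0.04 for Lamb2 without null replicate 1, -0.03 for Lama2 without null replicate 2 and 0.06 for Lama4 without control replicate 2.

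Of the proteins that join the networks, agrin had groups that did not overlap. Agrn intensities were 3840, 3980 and 3950 in controls and 3520, 3700 and 3480 in nulls. All null arrays lay below all control arrays, by a small step. The difference was -0.14 (95% confidence interval -0.26 to -0.02, n = 3 per group, limma adjusted p = 0.773). Perlecan, encoded by Hspg2, gave 606, 525 and 595 in controls and 446, 805 and 822 in nulls, so the null arrays lay on both sides of the controls. Nid1, a nidogen that bridges laminin and collagen IV, gave 4100, 3110 and 4180 in controls and 3120, 3370 and 3920 in nulls. Nid2, its homologue, gave 1140, 1220 and 1320 in controls and 1480, 1210 and 1390 in nulls. Differences were -0.12 for Nid1, 0.15 for Nid2 and 0.21 for Hspg2. Fn1 encodes fibronectin, a matrix glycoprotein bound by many integrins, and gave 1230, 1760 and 1830 in controls and 1610, 1250 and 1370 in nulls. Its difference of -0.17 was 0.28 at its second probe set, so the probe sets of Fn1 differed in sign.

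None of the main fibrillar collagens passed the test, and their groups overlapped at the brightest probe set of each. Col1a1 and Col1a2 encode the chains of collagen I. Col1a1 gave 5540, 4880 and 5750 in controls and 4270, 5010 and 5090 in nulls, with overlapping groups and a difference of -0.17 (95% confidence interval -0.37 to 0.03, n = 3 per group). Its second probe set gave 2110, 2290 and 2410 in controls and 2100, 1880 and 1910 in nulls. There the groups did not overlap, at 2110 against 2100 where they come closest, and the difference was -0.21 (-0.39 to -0.02, n = 3 per group, limma adjusted p = 0.773). Col1a2 gave 4240, 3860 and 4630 in controls and 3990, 4010 and 4510 in nulls, a difference of -0.02. Col3a1, the chain of collagen III in soft tissue, gave 7750, 7170 and 8030 in controls and 7310, 7240 and 7820 in nulls, a difference of -0.04 with an interval of -0.16 to 0.09. The interval of Col1a2 was -0.21 to 0.16. Col11a1, a regulator of fibril width, gave 678, 458 and 577 in controls and 457, 458 and 494 in nulls, with control replicates 1 and 3 above all nulls. Col5a1 and Col5a2, which seed collagen I fibrils, were at -0.11 and -0.05, Col24a1 at -0.27 and Col27a1 at 0.23. The second probe set of Col27a1 gave 99.2, 124 and 103 in controls and 132, 141 and 144 in nulls. There the groups did not overlap, with a difference of 0.36 (limma adjusted p = 0.773). Of 9 fibrillar chains tested, 7 had differences below 0 and 2 above.

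Col2a1, the fibrillar chain of cartilage, and the collagen IX chains varied together and by much more. Collagen IX decorates collagen II fibrils. Col2a1 intensities were 108, 27.3 and 41.9 in controls and 43.2, 145 and 206 in nulls. Col9a1 was at 413, 85.5 and 157 in controls and 193, 380 and 658 in nulls. For both, control replicate 1 and null replicates 2 and 3 were high and the other 3 arrays low, so the groups overlapped. Col9a2 gave 207, 146 and 153 in controls and 172, 243 and 368 in nulls, and Col9a3 gave 3690, 2640 and 2700 in controls and 2870, 3250 and 4790 in nulls, with the same 3 arrays highest. Differences were 1.13 for Col2a1, 1.04 for Col9a1, 0.58 for Col9a2 and 0.25 for Col9a3, with limma adjusted p of 0.773 to 0.813. With single arrays left out they ranged from 0.67 to 1.80 for Col2a1, 0.52 to 1.65 for Col9a1, 0.30 to 0.84 for Col9a2 and 0.04 to 0.41 for Col9a3. The lowest of these came without null replicate 3, or, for Col9a1, without control replicate 2, and the highest without null replicate 1 or control replicate 1. Collagen IX genes were named here after their values were seen.

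The split of arrays at these 4 genes ran opposite to that of fetal Leydig markers, but not of these alone. Relative to the mean of the 6 arrays, the median of the Leydig list was at -0.75, 0.76 and 0.78 in controls and at 1.26, -0.65 and -1.40 in nulls. Germ cell markers were lowest in the same arrays as Leydig markers, at -0.26, 0.41 and -0.01 in controls and 0.08, -0.19 and -0.23 in nulls. Coelomic surface and adrenal markers were at -0.66, 0.41 and -0.05 in controls and 0.66, -0.05 and -0.12 in nulls. Erythroid markers were at 0.54, -0.72 and -0.07 in controls and -0.15, 0.27 and 0.48 in nulls. Endothelial markers were at 0.32, -1.14 and 0.27 in controls and -0.46, 0.25 and 0.52 in nulls. The median of the Sertoli list stayed between -0.05 and 0.04. Of the 7 listed genes of cartilage, bone and skeletal muscle, 4 passed the filter. Their median, which pools these tissues, was at 0.19, -0.38 and 0.08 in controls and 0.41, -0.14 and -0.24 in nulls. It was highest in null replicate 1, where Col2a1 was low. Among cartilage genes, Matn1 was below the filter in all arrays at 3.61 to 6.10, and Acan, the cartilage proteoglycan aggrecan, was at 11.4 to 26.4. Sox5, a factor of cartilage that other tissues also express, gave 107, 54.7 and 76.4 in controls and 67.8, 99.1 and 115 in nulls. Sox5 is 1 of the 7 listed genes and was named after its values were seen. The part of any of these cell types in the collagen values was not tested. With an endothelial marker score as a covariate the differences were 0.75 for Col2a1 and 0.67 for Col9a1.

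**Figure D3:**
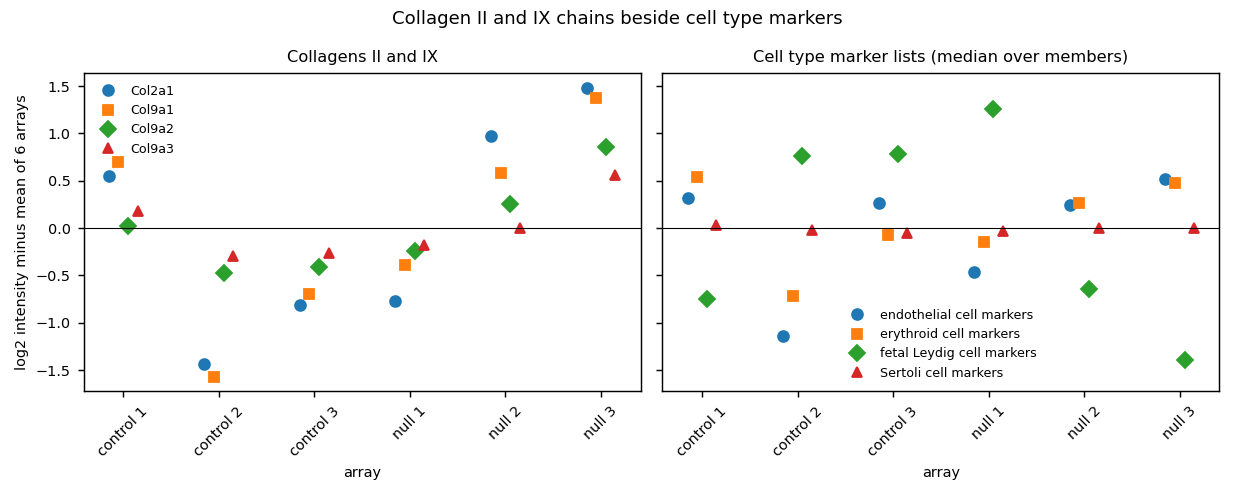
Left, log2 intensity of Col2a1 and the 3 collagen IX chains in each array minus the mean of the 6 arrays; right, the same for marker lists, as the median over list members. Control replicate 1 and null replicates 2 and 3 are the highest arrays for Col2a1 and Col9a1, and the lowest for fetal Leydig markers.

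Among the remaining collagens, null and control arrays did not overlap at 4 of 19 tested chains, or 21.1%, against 13.1% of all genes tested. Col8a2, a short-chain collagen of endothelial and corneal membranes, gave 583, 496 and 672 in controls and 435, 438 and 372 in nulls. All 3 null arrays lay below the lowest control. The difference was -0.49 (95% confidence interval -0.82 to -0.15, n = 3 per group, unadjusted p = 0.00972 and adjusted p = 0.773 by limma), or 1.40-fold. Col12a1, which lies along collagen I fibrils, gave 55.3, 62.3 and 68.2 in controls and 49.7, 39.7 and 33.5 in nulls. Its difference of -0.61 (-1.04 to -0.18, n = 3 per group, limma adjusted p = 0.773) was -0.46 with 16 added to each intensity. Col25a1, a transmembrane collagen of neurons and developing muscle, gave 1490, 1780 and 1860 in controls and 1400, 1400 and 1110 in nulls, a difference of -0.39 (-0.68 to -0.10). Col26a1, a collagen first described in developing gonads, was the chain with null arrays above, at 1220, 884 and 1140 in controls and 1230, 1300 and 1450 in nulls. Its groups were 1220 against 1230 at their closest, its difference was 0.31, and it was named after its values were seen. Without control replicate 3, which carried the chromaffin-type transcripts, the differences were -0.38 for Col8a2, -0.54 for Col12a1, -0.33 for Col25a1 and 0.35 for Col26a1.

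**Figure D4:**
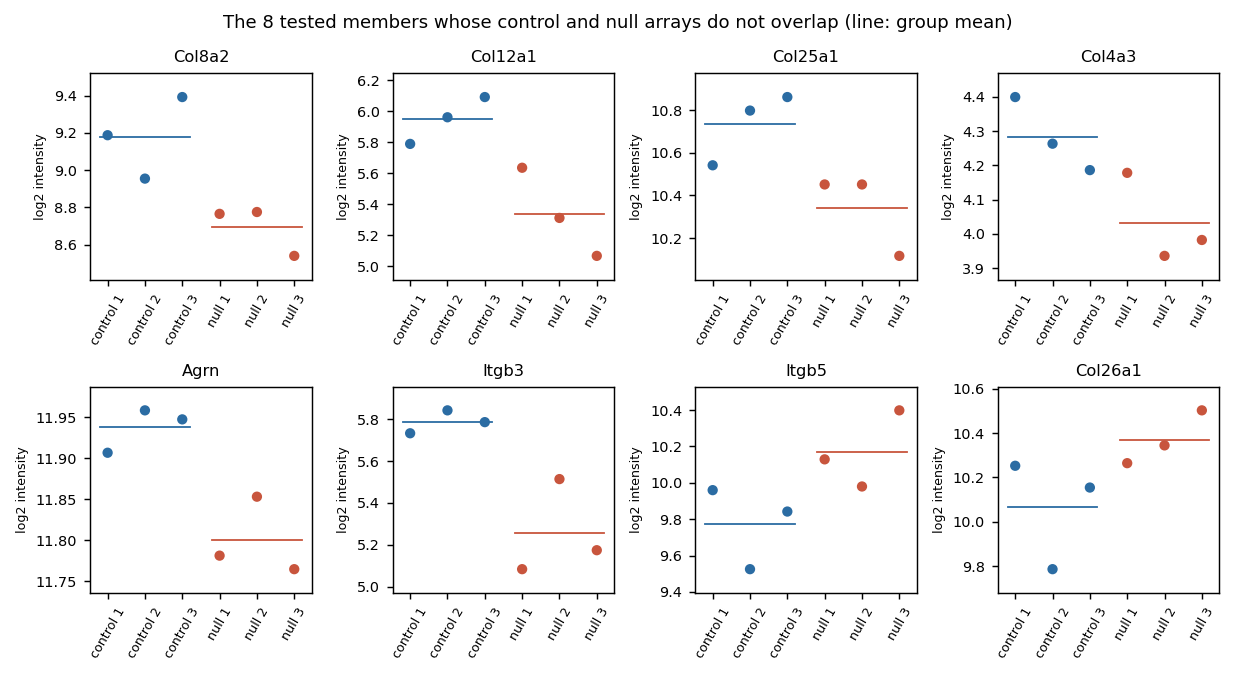
Log2 intensity in each array of the 8 tested members whose groups do not overlap, controls in blue and nulls in red, with the group mean as a line; each panel has its own axis. In 6 panels the nulls lie below the controls, and for Itgb5 and Col26a1 they lie above, with the narrowest margins at Col4a3, Col26a1 and Itgb5.

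Col18a1, a basement membrane collagen that yields endostatin, had an unadjusted limma p of 0.0366 with overlapping groups. It gave 1940, 1590 and 1570 in controls and 1880, 2010 and 2330 in nulls, a difference of 0.29, and 0.34 at its second probe set. Col8a1, the partner of Col8a2, gave 21.6, 37.4 and 80.5 in controls and 28.9, 27.0 and 18.8 in nulls. Its difference of -0.72 was -0.22 without control replicate 3, the array that alone was high. Collagen VI forms beaded filaments around cells, and its chains were close to even, at -0.15 for Col6a1, -0.06 for Col6a2 and -0.13 for Col6a3. Of 25 collagens outside the fibrillar and type IV classes, 19 were tested, with 9 differences above 0 and 10 below.

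The integrin alpha chains gave no member with groups that did not overlap at its brightest probe set. Of 12 chains outside the leukocyte class, 8 were tested, 4 above 0 and 4 below. Itga6, a laminin receptor chain, gave 3520, 2960 and 3080 in controls and 2570, 3030 and 2930 in nulls, a difference of -0.16 (95% confidence interval -0.37 to 0.05, n = 3 per group). Itgav, which pairs with several beta chains, gave 5030, 4390 and 4300 in controls and 3920, 4400 and 4450 in nulls, a difference of -0.10. Itga4, which binds fibronectin and is also found on leukocytes, gave 546, 537 and 797 in controls and 578, 355 and 495 in nulls. Its difference of -0.40 was -0.21 without control replicate 3, its highest array, and -0.20 without null replicate 2, its lowest. Another tested probe set of Itga4, close to the filter level, gave 20.5, 19.9 and 26.9 in controls and 18.6, 17.9 and 11.5 in nulls. There the groups did not overlap, with a difference of -0.51. Control replicate 3 was also highest for 10 macrophage and leukocyte markers, all past the filter. They were summed at 2630 to 3356 in controls and 2255 to 2714 in nulls. All 10 had differences below 0, with a median of -0.31, and their part in the Itga4 values was not tested. Itga8 and Itga9 were at 0.14 and 0.13, Itga3 and Itga5 at 0.15 and 0.11, and Itga1, a collagen receptor chain, at -0.27. The probe sets of Itga1, Itga3, Itga8 and Itga9 differed in sign.

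The beta chains Itgb3 and Itgb5, which share the partner Itgav, had differences of opposite sign. Itgb3 gave 53.2, 57.4 and 55.2 in controls and 33.9, 45.7 and 36.1 in nulls. The controls were tight and all nulls lay below them, with a difference of -0.53 (95% confidence interval -0.91 to -0.15, n = 3 per group, unadjusted p = 0.0124 and adjusted p = 0.773 by limma). With 16 added to each intensity the difference of Itgb3 was -0.39. Itgb5 gave 996, 737 and 918 in controls and 1120, 1010 and 1350 in nulls, all nulls above all controls, at 1010 against 996 where the groups come closest. Its difference was 0.39 (0.05 to 0.74, n = 3 per group, limma adjusted p = 0.773). All 4 tested probe sets of Itgb5 had groups that did not overlap, with differences of 0.29 to 0.45, and they share the same RNA samples. Itgb8, another partner of Itgav that activates latent TGF-beta, gave 304, 437 and 421 in controls and 431, 234 and 230 in nulls, a difference of -0.42 with null replicate 1 among the highest arrays. Itgb1, the partner of most alpha chains, gave 960, 829 and 794 in controls and 665, 840 and 788 in nulls, a difference of -0.17. Its 4 tested probe sets ranged from -0.20 to -0.06. The dimmest of them gave 32.4, 27.9 and 28.8 in controls and 26.2, 25.0 and 27.2 in nulls, groups that did not overlap.

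Leukocyte integrins were mostly below the filter. Of 6 such chains, which leukocytes use to adhere and migrate, Itgae alone was tested, at 13.0, 22.1 and 15.7 in controls and 25.0, 14.8 and 13.4 in nulls. Itgb2, the beta chain that pairs with Itgal and Itgax, was below the filter. Of the 4 genes that are integrins in name only, Itgb1bp1, whose product binds the tail of Itgb1, gave 288, 338 and 282 in controls and 412, 344 and 297 in nulls. Itgb3bp, a centromere protein, gave 967, 1090 and 994 in controls and 1440, 963 and 1130 in nulls. Both had overlapping groups and differences of 0.21 and 0.19. The 22 members not tested had mean log2 intensities of 1.42 to 3.79 and differences of -0.16 to 0.28.

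Where several probe sets of a gene were tested, 24 of 32 genes had all of them on the same side of 0. The 8 exceptions were Col23a1, Fn1, Itga1, Itga3, Itga8, Itga9, Lamb1 and Lamc1. The typical spread of members between arrays of a group, a median standard deviation of 0.22 on the log2 scale, was above the 0.18 of all tested probe sets.

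Genes that make, bind and cut these proteins were likewise not called. Among 22 tested genes of collagen synthesis and crosslinking, 0 were called by limma at an adjusted p under 0.05, with a median difference of 0.03 and 13 above 0. Adamts3, a procollagen protease, was at -0.42 with groups that did not overlap, and Plod2, a lysyl hydroxylase, at -0.24. Of 29 other matrix proteins, 9 lay above 0 and 20 below, with a median of -0.06, Emilin1 at 0.25 and Thbs1, thrombospondin, at -0.34. Of 27 other receptors and adhesion complex genes, 20 lay above 0 and 7 below, with a median of 0.06. There Sdc4, a syndecan, gave 1470, 2100 and 1450 in controls and 1100, 1150 and 933 in nulls, a difference of -0.64 at a limma adjusted p of 0.773, and Vcl, vinculin, was at -0.13. Of 22 proteases and inhibitors, 8 lay above 0 and 14 below, with a median of -0.07. Mmp23 gave 338, 411 and 352 in controls and 531, 478 and 515 in nulls, a difference of 0.47, and Mmp16 was at -0.32. None of these lists had a called member, and their medians compare with 0.03 over all genes tested. Their counts of signs compare with 6685 genes above 0 and 5189 below among all genes tested.

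The DMRT1 binding consensus was searched for as a description of the promoters. Its core ACAATGT, or the complement ACATTGT on the other strand, was found in 0 of 68 RefSeq promoter windows of 61 members, in the 250 bases before the start. It was found in 2.56% of all 32851 such windows. No match says only that these letters are not in this window.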

How the data were processed

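RNA of 6 fetal testis samples was amplified with the NuGen Ovation kit and hybridised to arrays, per the labels' protocols. The deposited intensities are linear, and the submitters' processing notes name GCRMA, with no version. They were logged to base 2 as they stood. Probe sets with a mean log2 intensity of 4 or more went into limma 3.58.1 (R 4.3.3), with group as the only term, an intensity trend in eBayes and two-sided Benjamini-Hochberg adjusted p over 22082 probe sets. Calls were made at 0.05. Gene names came from GEO's platform annotation, and all 175 member probe sets matched RefSeq (GRCm38.p6) by Entrez ID. The number of arrays limits the precision. A leading number that control replicate 3 and null replicate 2 share in their labels, with no meaning given, was not modelled. The fit was tested on simulated data.

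Named in full were, per class, up to 3 members of smallest p and 12 fixed genes, and per pathway list 2 genes. Other genes were chosen after their values were seen. Members and lists were chosen with earlier results of these data known. Alternatives were median centring or quantile normalization, 16 added to intensities, no filter or one at 6, other eBayes settings, array weights, a replicate block, an endothelial covariate, other probe sets and thresholds, and each array left out.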

Additional observations from a re-analysis of the deposited data

How the results depend on the processing

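No member was called by limma at an adjusted p under 0.05 in any alternative, the threshold of 0.10 included, a count of 0 against 7 at an unadjusted p under 0.05. Over all probe sets, limma called 6 with the settings used throughout, 0 to 4 with single arrays left out, 1 without the intensity trend, 3 with shared-binding types left out, 0 with the replicate block and 1333 at an unadjusted p. Same-numbered samples correlated at -0.59, -0.34 and 0.14 in their deviations from the group mean, and differently numbered ones at -0.40 to 0.58. With so few samples per group these values cannot show whether same-numbered samples belong together. The replicate block gave 0 members, with 5 at an unadjusted p under 0.05. That unadjusted count was 19 of 63 with array weights, 14 of 63 with the endothelial covariate and 4 of 32 at the second brightest probe sets. The share of all genes under these settings is not given here, so these counts cannot be set against a background. The members' median of -0.04 was -0.091 to 0.030 with single arrays left out and 0.0283 at the second brightest probe sets, and the lowest value over the alternatives was -0.102, with shared-binding types left out.

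Some signs turned, both of differences near 0 and of larger ones, among them those of Col4a6, Itga1, Lamc1, Lamc3 and Fn1. With single arrays left out, differences ranged from -0.099 to 0.20 for Col14a1, -0.15 to 0.39 for Col15a1, -0.26 to 0.094 for Col16a1, -0.090 to 0.041 for Col1a2, -0.11 to 0.13 for Col23a1 and -0.039 to 0.13 for Col4a1. They ranged from -0.040 to 0.14 for Col4a2, -0.28 to 0.023 for Col4a4, -0.14 to 0.061 for Col4a5, -2.75 to 0.39 for Col4a6, -0.25 to 0.053 for Col5a1 and -0.13 to 0.018 for Col5a2. Further ranges were -0.14 to 0.030 for Col6a2, -0.11 to 0.31 for Col7a1, -0.74 to 0.065 for Itga1, -0.034 to 0.24 for Itga5, -0.16 to 0.40 for Itga8 and -0.020 to 0.23 for Itga9. Itgae ranged from -0.23 to 0.26, Lama3 from -0.28 to 0.11, Lamb1 from -0.012 to 0.12 and Lamc3 from -0.66 to 0.21. The endothelial covariate gave -0.027 for Col14a1, -0.023 for Col15a1, -0.031 for Col7a1, -0.065 for Itga8 and 0.091 for Lamc3, and array weights gave -0.027 for Itga5 and -0.015 for Lamb1. The mean over probe sets gave 0.053 for Fn1, 0.0095 for Itga1 and -0.034 for Lamb1. Second or other probe sets gave 0.17 for Col23a1, 0.28 for Fn1, 0.29 for Itga1, -0.27 for Itga3, -0.11 for Itga8, -0.11 for Itga9, -0.26 for Lamb1 and 0.068 for Lamc1. The cause was not tested. Low intensity limits Col12a1, Itgb3 and Col4a3, whose differences were -0.46, -0.39 and -0.13 with 16 added to each intensity.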
